A study of Mus musculus with 4 samples.

Results

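The insulin-like growth factor (IGF) system of skeletal muscle was followed at 9 genes: the ligands Igf1 and Igf2, the receptors Igf1r and Igf2r, and the binding protein genes Igfbp3, Igfbp4, Igfbp5, Igfbp6 and Igfbp7. They were taken by name, through probe sets assigned to exactly 1 of these symbols, and all 9 were among the 15102 genes tested. The 9 genes had 27 probe sets. For each gene the brightest probe set over all arrays stands for it, and the others are given beside it.

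The muscle was the tibialis cranialis, a shin muscle, of 8 male C57Bl/6 mice that were moved from chow to a high fat diet at 8 weeks of age. After 4 weeks of the diet, 1 leg received AAV8 ProMyo, an adeno-associated virus vector used in the series to inhibit myostatin, and the other leg saline. Both muscles were collected 10 weeks after the injection, at an age of 22 weeks. RNA of animals 1-4 and of animals 5-8 was mixed in equal amounts, so that each treatment had 2 arrays, each a pool of 4 mice, and all mice of both groups were on the high fat diet. The control leg received no empty vector and shared its circulation with the injected leg, and the promoter of the vector is not given in the sources used here.

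IGF-I and IGF-II are secreted peptides that act through the IGF-I receptor, a tyrosine kinase that feeds the PI3K and Akt pathway and drives muscle protein synthesis and the growth and survival of muscle cells. The IGF-II receptor, which is also the mannose 6-phosphate receptor, takes up IGF-II for degradation and carries lysosomal enzymes. The binding proteins hold IGFs in the circulation or near the cell surface and can block or prolong their action. Myostatin, a secreted inhibitor of muscle growth, acts through activin receptors and Smad proteins, and its signal opposes the Akt pathway in muscle fibres.

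At the brightest probe sets the ligands and receptors overlapped between ProMyo and saline muscle, and the groups lay apart at 4 of the 5 binding protein genes. This division depends on the probe set. At the second brightest, the groups lay apart for Igf1r and Igfbp7 and overlapped for Igfbp3. Both arrays of ProMyo muscle lay above both arrays of saline muscle for Igfbp5 and Igfbp3 (as for 17.8% of all genes) and below both for Igfbp4 and Igfbp6 (as for 15.7%). None of the 9 genes passed the test: limma's adjusted p lay between 0.82 and 0.999, and 0 of 15102 genes had an adjusted p under 0.05 (0% of genes), with 874 (5.79%) at an unadjusted p under 0.05 and none of the 9 among them. The differences of the 9 genes are therefore given as measurements, none of which passed after adjustment over all genes tested. This fit did not pair both legs of a pool. In simulated data it recovered 0.2% of changes of 1.5-fold.

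The starts of the 4 binding protein genes whose arrays did not overlap at the brightest probe set are shown. They form 2 pairs that lay apart in opposite directions, Igfbp5 and Igfbp3 above and Igfbp4 and Igfbp6 below. Each line holds the 250 bases before the RefSeq transcription start in GRCm38.p6, read 5′ to 3′ on the strand of the gene. Capitals mark E-boxes (CANNTG on either strand, where N is any base), the motif that factors of the MyoD family and other helix-loop-helix proteins bind.
Igfbp5, chr1:72874866-72875115, minus strand: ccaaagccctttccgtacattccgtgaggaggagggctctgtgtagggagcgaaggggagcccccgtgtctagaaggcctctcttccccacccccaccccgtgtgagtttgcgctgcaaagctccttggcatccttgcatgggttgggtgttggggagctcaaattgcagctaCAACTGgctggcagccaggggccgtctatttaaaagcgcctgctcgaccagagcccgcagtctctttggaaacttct
Igfbp3, chr11:7213924-7214173, minus strand: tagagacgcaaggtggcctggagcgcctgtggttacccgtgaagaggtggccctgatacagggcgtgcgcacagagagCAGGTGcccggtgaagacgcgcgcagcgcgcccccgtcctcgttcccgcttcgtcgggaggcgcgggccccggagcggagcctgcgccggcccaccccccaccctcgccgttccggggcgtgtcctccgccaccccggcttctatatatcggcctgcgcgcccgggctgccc
Igfbp4, chr11:99040994-99041243, plus strand: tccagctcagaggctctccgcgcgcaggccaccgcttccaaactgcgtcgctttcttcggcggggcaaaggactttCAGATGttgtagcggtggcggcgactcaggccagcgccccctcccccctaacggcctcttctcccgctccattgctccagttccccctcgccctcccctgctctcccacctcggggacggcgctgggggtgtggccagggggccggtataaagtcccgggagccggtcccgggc
Igfbp6, chr15:102143936-102144185, plus strand: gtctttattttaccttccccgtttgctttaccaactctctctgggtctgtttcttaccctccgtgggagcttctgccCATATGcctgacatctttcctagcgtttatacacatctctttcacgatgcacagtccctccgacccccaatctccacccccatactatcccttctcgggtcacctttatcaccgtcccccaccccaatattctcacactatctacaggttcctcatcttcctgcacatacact

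All 9 genes matched the RefSeq promoter table, with 12 windows among them, 4 of these for Igf2. Each of the 4 windows printed held 1 E-box. At least 1 was in 7 of the 12 windows of the 9 genes and in 66.2% of all 32851 windows of this length. The E-box began 77 bases before the start in Igfbp5, 172 in Igfbp3, 174 in Igfbp4 and 173 in Igfbp6. The core of the Smad box (CAGAC, or GTCTG on the other strand) was found in the Igfbp6 window, 206 bases before the start, and not in the other 3, against 42.2% of all windows. The TATA box letters TATAAA were found 28 bases before the start of Igfbp4. The Igfbp6 window held them only on the other strand (TTTATA), 148 bases before the start. Either form was in 2 of the 12 windows and in 12.4% of all windows. Only these exact letters were searched, so TATA-like variants in any window were not counted. The forkhead motif TGTTTAC, or GTAAACA, was in none of the 12 windows and in 3.17% of all. The 4 windows held 58.8% G and C in Igfbp5, 73.2% in Igfbp3, 69.2% in Igfbp4 and 49.6% in Igfbp6, with a median of 52.4% over all windows. These matches describe the letters of the windows and are no evidence that a factor binds there.

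The values are log2 expression values as deposited, in which 1 unit is a doubling. Array medians ran from 1.06 to 1.11. The saline 5-8 array stood apart, with an upper quartile of 2.975 where the others had 3.15 to 3.20, and with spiked hybridization controls at a mean of 11.15 where the others had 10.1 to 10.2. The 3' over 5' signal of Gapdh, which moves with RNA integrity, was 0.58 and 0.74 log2 units in the ProMyo legs, against 0.90 and 0.81 in the saline legs, so that it was lower in both arrays of the ProMyo legs. Its part in the differences below was not tested. The Bacillus control probe sets, which have no target in mouse RNA, reached at most 0.57 to 0.99 per array and are taken as the background level. Fast fibre genes marked the tissue as labelled: Myh4, the type 2B myosin heavy chain, read 11.9 to 12.2, and Myh7, the slow myosin heavy chain, 1.16 to 1.85.

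Igf1, which muscle makes for local use in addition to the liver's circulating supply, read 4.77 and 4.90 in the ProMyo arrays of animals 1-4 and 5-8 and 4.64 and 4.80 in the saline arrays. The 4 values lay close together, with the groups overlapping, and each ProMyo array was slightly above the saline array of the same mice. The difference was 0.11 ± 0.17 (log2 ± SE, 2 pools per group), or 1.08-fold, with a 95% interval from -0.31 to 0.54 (limma, adjusted p = 0.93). This interval runs from 0.808-fold to 1.45-fold, so a moderate change in either direction lies within it. The other 3 probe sets of Igf1 read differences of 0.28, 0.31 and 0.09, the last with -0.71 in animals 1-4 and 0.89 in animals 5-8.

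Igf2, the growth factor of fetal muscle and of regenerating fibres, read 3.58 and 2.62 in the ProMyo arrays and 3.58 and 3.07 in the saline arrays. The muscles of animals 1-4 were the higher in both treatments, and their values in both legs were exactly equal, as happened in that pool for 462 genes (3.06%). The difference was -0.22 ± 0.37, with a 95% interval from -1.16 to 0.72, the widest of the 9 genes (limma, adjusted p = 0.95). The other probe set of Igf2 was at background on all 4 arrays. The sign of the difference turned when 1 array was left out: without ProMyo 5-8 it read 0.25, and leaving out saline 1-4 gave 0.03.

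Igf1r, the receptor through which both ligands signal, read 4.03 and 3.32 in the ProMyo legs, against 4.49 and 3.89 in the saline legs. Within each pool the ProMyo leg was the lower, with differences of -0.45 in animals 1-4 and -0.57 in animals 5-8, while the groups overlapped because animals 5-8 were lower in both legs. The difference was -0.51 ± 0.33, which put saline muscle 1.43-fold above ProMyo muscle, with a 95% interval from -1.34 to 0.32 (limma, adjusted p = 0.84). Leaving out the ProMyo 5-8 array gave -0.16, and leaving out the saline 5-8 array gave -0.81. The second probe set of Igf1r went the other way, with 2.66 and 2.67 in the ProMyo legs, 2.41 and 2.24 in the saline legs and a difference of 0.33 ± 0.17. The third read -0.11, and the other two were at background on 3 and on 4 of the arrays. The mean of the Igf1r probe sets above the filter differed by -0.07, so the direction for the receptor rests on the probe set chosen.

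Igf2r, the receptor that clears IGF-II, read 6.30 and 6.17 in the ProMyo legs, against 6.21 and 6.12 in the saline legs. These values overlapped and spanned less than 0.2 log2 units. The difference was 0.07 ± 0.16, with a 95% interval from -0.33 to 0.48 (limma, adjusted p = 0.96), and the other Igf2r probe set also read 0.07.

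**Figure D1:**
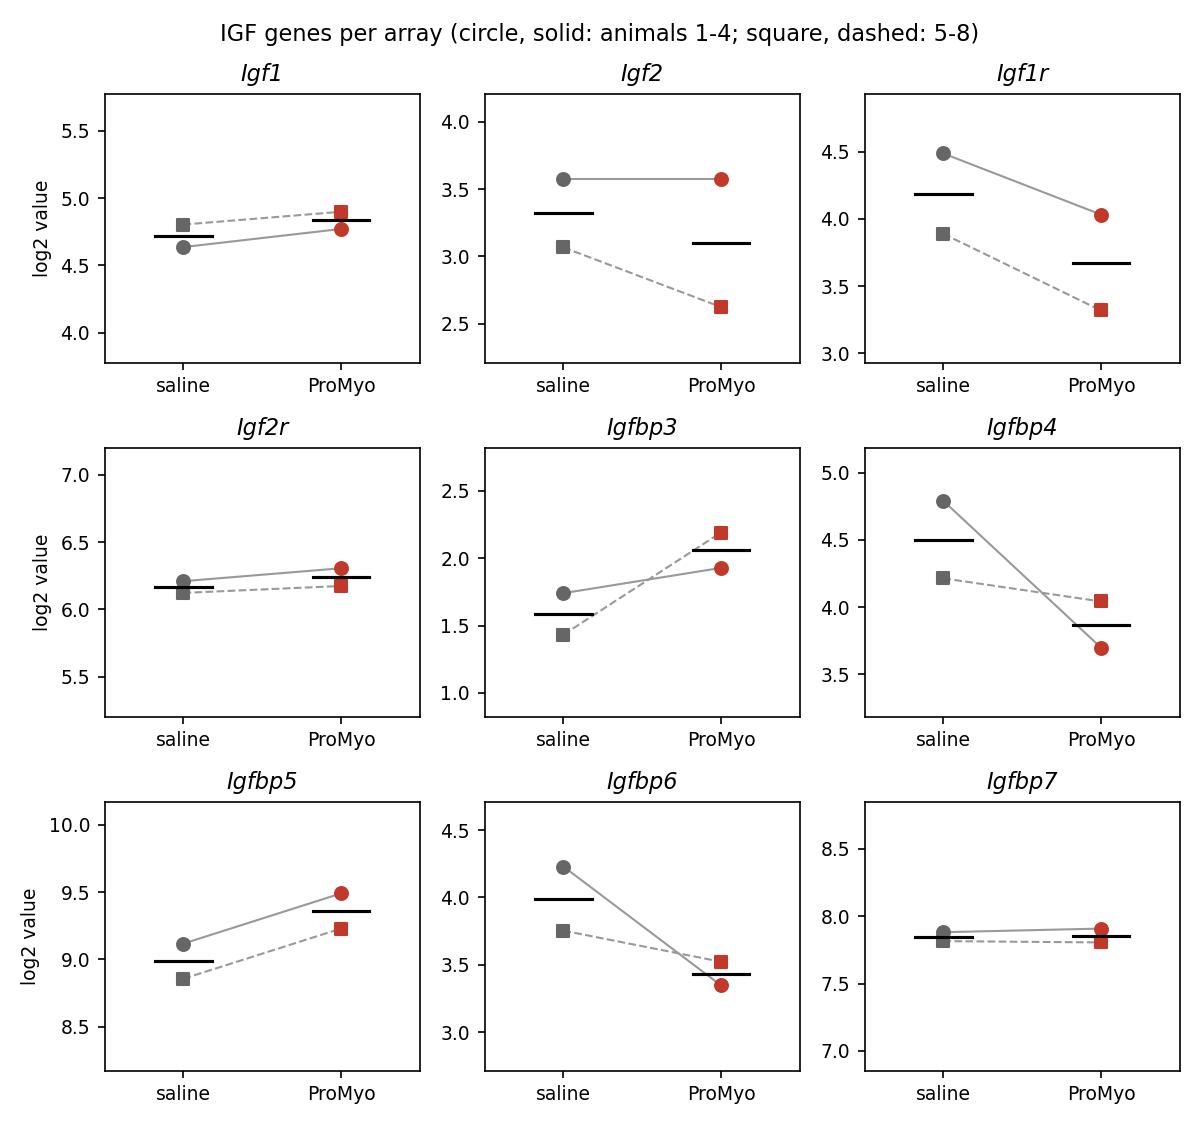
Log2 values of the brightest probe set of each IGF gene (vertical axis, 2 log2 units tall in every panel) in saline (grey) and ProMyo (red) muscle, with lines joining both legs of the same pool and black bars at the group means. Igfbp5 runs from 8.86 and 9.12 in saline muscle to 9.23 and 9.49 in ProMyo muscle with parallel lines, and Igf1r is lower in the ProMyo leg of each pool while animals 5-8 sit lower in both legs.

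Among the binding proteins, Igfbp5 had the most even difference. Its product is a main IGF binding protein of skeletal muscle and is made by muscle cells as they differentiate. It read 9.49 and 9.23 in the ProMyo legs, against 9.12 and 8.86 in the saline legs. Both ProMyo arrays were above both saline arrays, and animals 5-8 were lower than animals 1-4 by 0.26 in each leg. The difference within the pools was 0.37 in both, and the fitted difference was 0.37 ± 0.19, or 1.29-fold, with a 95% interval from -0.11 to 0.86 (limma, adjusted p = 0.83). The other probe set of Igfbp5 read 7.07 and 6.81 in the ProMyo legs, against 6.41 and 6.14 in the saline legs. There the difference was larger, at 0.67 ± 0.20 (limma over all 33778 probe sets, unadjusted p = 0.018, adjusted p = 0.76), with 0.66 and 0.67 in the pools. Leaving out the ProMyo 1-4 or the saline 5-8 array lowered the difference of the brightest probe set to 0.24. Of all genes tested, 90.7% had a lower difference than or the same as Igfbp5. The neighbouring gene Igfbp2 was dim, between 0.68 and 1.06 on the 4 arrays, with a difference of -0.01.

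Igfbp3, which carries most IGF in the blood together with the acid-labile subunit, was dim in this muscle. It read 1.93 and 2.19 in the ProMyo legs, against 1.74 and 1.43 in the saline legs, above the background controls on every array and without overlap between the groups. The difference was 0.47 ± 0.20, or 1.39-fold, with a 95% interval from -0.03 to 0.98 (limma, unadjusted p = 0.060, adjusted p = 0.82). It was 0.19 in animals 1-4 and 0.76 in animals 5-8. The second probe set of Igfbp3 showed no such separation, with 1.40 and 1.18 in the ProMyo legs, 1.12 and 1.48 in the saline legs and a difference of -0.01. Igfbp1, the gene next to it, was at background on all 4 arrays.

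Igfbp4, whose product mainly restrains IGF action until the protease PAPP-A cleaves it, read 3.70 and 4.04 in the ProMyo legs, against 4.79 and 4.21 in the saline legs. Both ProMyo arrays were below both saline arrays, with a narrow gap between ProMyo 5-8 and saline 5-8. The difference was -0.63 ± 0.26, which put saline muscle 1.55-fold above ProMyo muscle, with a 95% interval from -1.29 to 0.03 (limma, unadjusted p = 0.057, adjusted p = 0.82). It was -1.09 in animals 1-4 and -0.17 in animals 5-8, so most of it came from the first pool. Without the saline 1-4 array it was -0.34 and without the saline 5-8 array -0.92. Of all genes tested, 1.32% had a difference as low as this or lower.

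Igfbp4 had 6 probe sets, the most of the 9 genes. The second brightest read 3.46 and 3.20 in the ProMyo legs, against 4.09 and 4.04 in the saline legs, a difference of -0.73 ± 0.18 (limma over all probe sets, unadjusted p = 0.0083, adjusted p = 0.76). There the pools were closer to each other, with -0.64 in animals 1-4 and -0.83 in animals 5-8. The next probe sets read -0.04, -0.23 and -0.50. The dimmest, which was at background on 1 array, read 0.29. Those at -0.04 and -0.23 carry the array maker's mark (_x_at) for probes shared with other sequences. The second brightest, at -0.73, carries another mark (_s_at), for probes shared by several transcripts. The brightest probe set of Igfbp5 and the second of Igfbp3 carry that mark too.

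Igfbp6, whose product prefers IGF-II over IGF-I, had 1 probe set. It read 3.35 and 3.52 in the ProMyo legs, against 4.23 and 3.75 in the saline legs, again without overlap. The difference was -0.56 ± 0.22, or 1.47-fold higher in saline muscle, with a 95% interval from -1.12 to 0.001 (limma, unadjusted p = 0.050, adjusted p = 0.82). As for Igfbp4, animals 1-4 had the larger part, -0.88 against -0.23 in animals 5-8. Without the saline 1-4 array it was -0.32. Of all genes tested, 2.34% had a difference as low as this or lower.

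Igfbp7, a secreted protein of vessel walls that binds IGFs with low affinity, read 7.91 and 7.81 in the ProMyo legs, against 7.88 and 7.82 in the saline legs. The 4 values were the closest to each other of any of the 9 genes, and the difference was 0.01 ± 0.16 with a 95% interval from -0.39 to 0.41 (limma, adjusted p = 0.999). The second probe set of Igfbp7 gave another reading, with 5.08 and 5.18 in the ProMyo legs, 4.82 and 4.42 in the saline legs and a difference of 0.51 ± 0.20 (limma over all probe sets, unadjusted p = 0.053, adjusted p = 0.76). The third was at background on 2 arrays. The probe sets of Igfbp7 therefore did not give 1 answer.

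**Figure D2:**
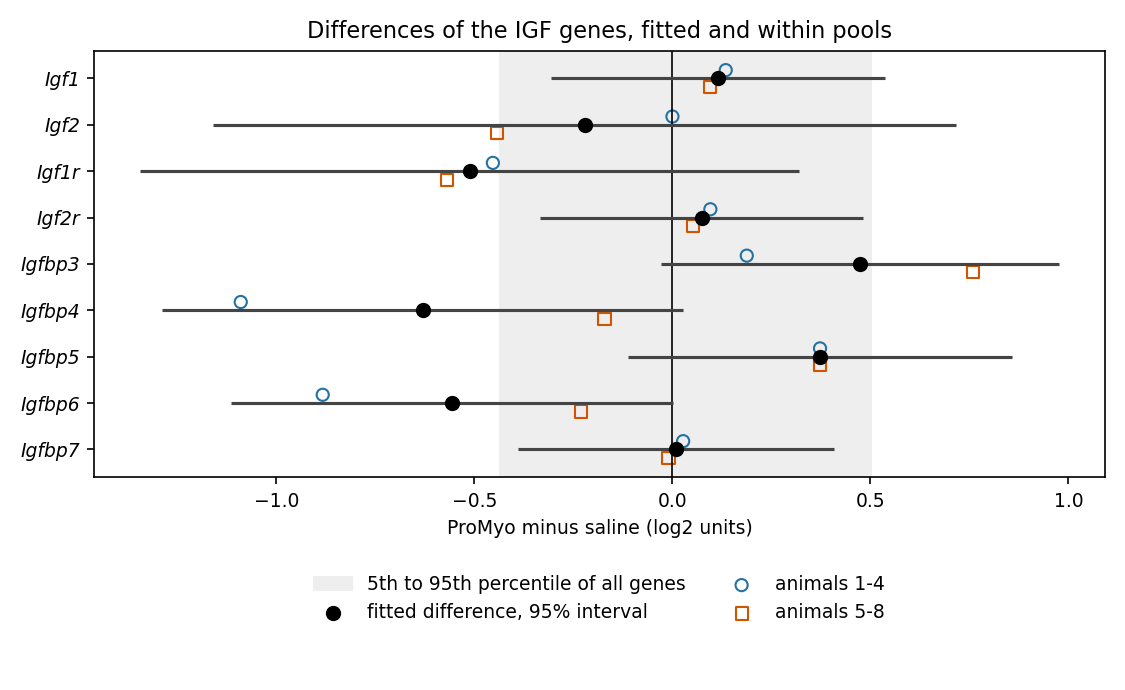
ProMyo minus saline in log2 units for the brightest probe set of each IGF gene: black points are the fitted differences with 95% intervals, and open circles and squares are the differences within animals 1-4 and 5-8. All 9 intervals include 0; the grey band from -0.44 to 0.50 holds the differences between the 5th and the 95th percentile of all genes tested, and the points of Igfbp4, Igfbp6 and Igf1r lie below it.

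Counted together, 4 of the 9 genes had the higher value in the ProMyo leg of both pools (Igf1, Igf2r, Igfbp3 and Igfbp5), against 29.0% of all genes tested. A further 3 were lower in both (Igf1r, Igfbp4 and Igfbp6), against 24.0%. The other two, Igf2 and Igfbp7, were not on the same side in both pools, as for 47.0% of all genes. These counts moved with the processing: quantile normalization gave 2 higher and 4 lower, centring the arrays on their medians gave 5 higher and 4 lower, and the mean of each gene's probe sets gave 5 higher and 3 lower. Groups did not overlap for 2 genes with ProMyo muscle above (17.8% of all genes) and 2 with ProMyo muscle below (15.7%). Whether these shares differ from those of all genes was not tested. None of the 9 was at least 1.5-fold higher in both pools (1.03% of all genes) or at least 1.5-fold lower in both (0.563%). The median difference of the 9 genes was 0.01, and that of all genes tested was also 0.01.

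Over all 27 probe sets the differences ran from -0.73 at Igfbp4 to 0.67 at Igfbp5. Apart from the brightest, 13 were above background on every array. Of these, 11 had the sign of the brightest probe set of their gene and 2 the opposite sign, 1 at Igf1r and 1 at Igfbp3. The remaining 5 were at background on 1 array or more. At Igf1, Igfbp4, Igfbp5 and Igfbp7 the next brightest probe set had the same sign with a larger size. Both probe sets of Igfbp5 and the 2 brightest of Igfbp4 kept the groups apart, which those of Igfbp3 and Igf1r did not do together.

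**Figure D3:**
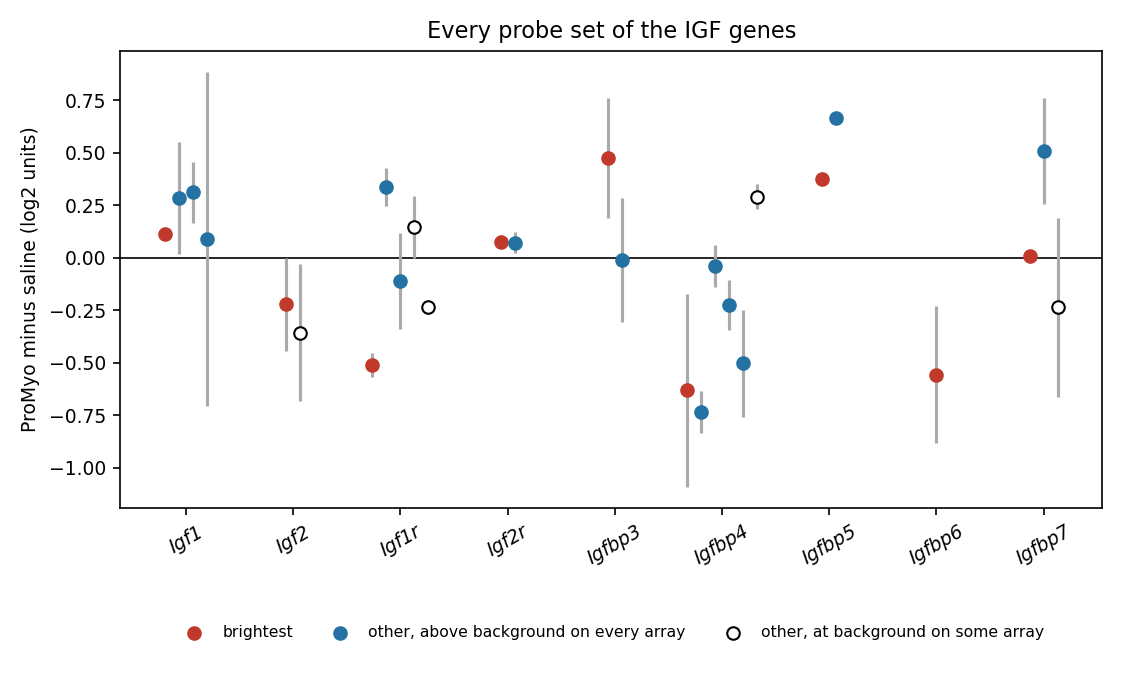
ProMyo minus saline in log2 units for each of the 27 probe sets, in order of brightness within a gene: points are the mean of both pools and grey bars join the differences of the pools. The 2 probe sets of Igfbp5 sit at 0.37 and 0.67 with almost no gap between pools, and those of Igf1r lie on both sides of 0.

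The pools of mice also differed from each other. From animals 1-4 to animals 5-8, 5 of the 9 genes were lower in both legs (Igf2, Igf1r, Igf2r, Igfbp5 and Igfbp7) and Igf1 was higher in both. For Igf1r the pools were -0.71 apart in ProMyo muscle and -0.60 in saline muscle. Igf2 was -0.95 apart in ProMyo muscle and -0.51 in saline muscle. In 5 of the 9 genes the mean difference between pools was larger in size than the difference between treatments.

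Muscle holds several cell types that make these proteins, and in bulk RNA fewer cells of a type and less RNA per cell cannot be told apart. Fibroblast markers, of the connective tissue cells known to express Igfbp4 and Igfbp6, stood lower in the ProMyo leg of both pools in 9 of their 11 measured genes and higher in 1. Of all genes tested, 24.0% were lower and 29.0% higher in both pools. The summed linear level of the fibroblast markers was 1775 to 1808 in ProMyo muscle and 2152 to 2334 in saline muscle. The ratio was 0.840 in animals 1-4 and 0.760 in animals 5-8. A linear sum weighs bright genes most, here Gsn (-0.31) and Col1a1 (-0.68). Pi16 differed by -0.96, Col1a2 by -0.78, Thy1 by -0.35 and Col3a1 by -0.19. Pi16 and Col1a2 had the smallest p of the list (limma, unadjusted p of 0.0041 and 0.0035, adjusted p = 0.82 for both). Pdgfra differed by -0.10, Cd34 by -0.09, Dpt by -0.06 and Dcn by 0.03, and Lum was higher by 0.63. The ratio alone is no measure of the number of fibroblasts, which was not tested. None of the 11 was at background on all arrays. Tendon markers were at 785 to 875 in ProMyo muscle and 1110 to 1173 in saline muscle, with 5 of 8 lower in both pools and 1 higher. This sum mostly follows Fmod, which read 9.22 to 9.85 and differed by -0.53, where the next brightest, Thbs4, read 6.96 to 7.35. Chad, which is dimmer, had the largest difference of the list, -1.24 (limma, unadjusted p = 0.0061, adjusted p = 0.82). It was -1.24 in animals 1-4 and -1.23 in animals 5-8. Comp differed by -0.31, Mkx by -0.25, Thbs4 by -0.20, Tnmd by -0.13, Scx by 0.07 and Tnc by 0.46. Macrophage markers, of a cell that also supplies IGF-I to injured muscle, were at 239.8 to 266.7 and 276.7 to 322, with 5 of 10 lower in both pools and 1 higher. The part of these markers in the differences of the IGF genes was not tested.

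For 8 of 10 myofibre markers the ProMyo leg was the higher in both pools and for 1 the lower (29.0% of all genes, with 24.0% lower in both). The lower was Myh2, with -0.57 in animals 1-4 and -0.21 in animals 5-8. Its difference, -0.39, was the largest in size of the list. The ratios of the summed level of the myofibre markers were 1.08 and 1.10, beside the higher Igfbp5 values. A link between these was not tested. Endothelial markers, of the cells that express Igfbp7 and Igfbp3, gave 0.998 and 1.16, with 5 of 10 higher in both pools and none lower in both. Smooth muscle and pericyte markers gave 0.968 and 1.07, in a sum led by Des and Rgs5, with 3 of 8 higher in both pools and 1 lower. Dimmer genes of this list moved in opposite directions. Tagln differed by 0.78, with 0.67 in animals 1-4 and 0.88 in animals 5-8 (limma, unadjusted p = 0.034, adjusted p = 0.82). Acta2 differed by -0.46, with -0.77 in animals 1-4 and -0.16 in animals 5-8. Satellite cell and regeneration markers gave 0.609 in animals 1-4 and 1.25 in animals 5-8, with 1 of 7 higher in both pools, 1 lower and 5 split. Myod1 was the brightest of them, with -1.06 in animals 1-4 and 0.21 in animals 5-8. Schwann cell markers gave 0.998 and 0.794, with 1 of 4 at background on all arrays. Pmp22, at 6.87 to 7.17, was by far the brightest of them. Of the 4, 0 were higher and 2 lower in both pools. The lower ones were Mbp and Mag, and Mag was the one at background. Mbp read 2.60 and 2.14 in the ProMyo legs, against 3.12 and 3.16 in the saline legs. It differed by -0.76 ± 0.21 (limma, unadjusted p = 0.014, adjusted p = 0.82). The 3 measured adipocyte markers, all dim, gave 0.984 and 0.554.

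**Figure D4:**
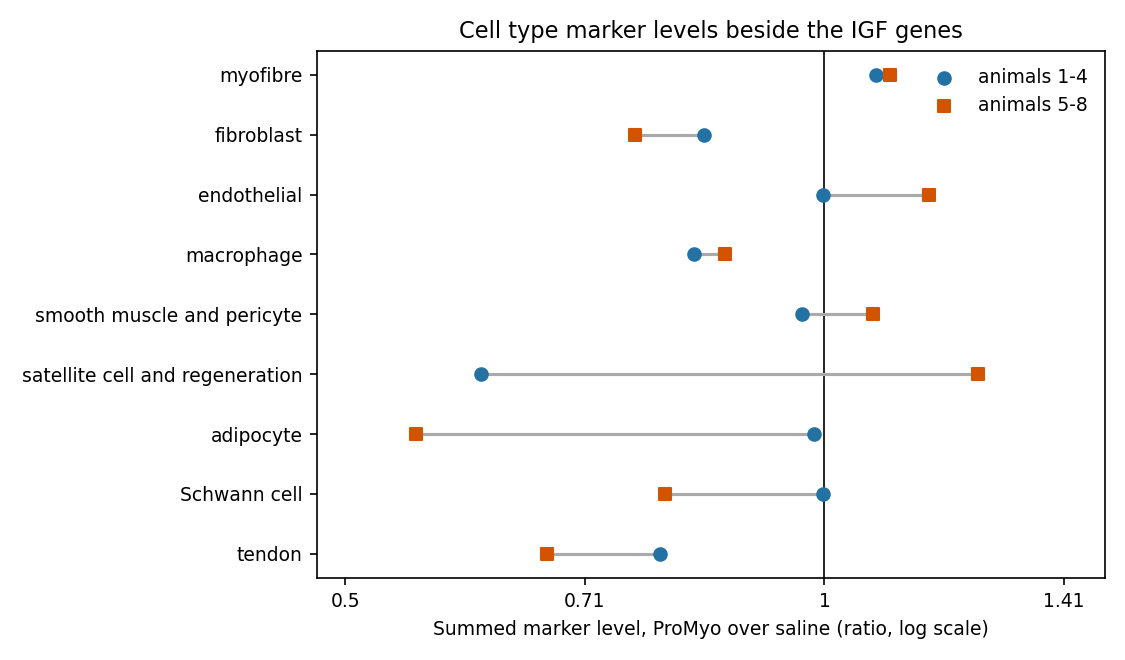
Summed level of each marker list in ProMyo muscle over saline muscle (horizontal axis, ratio on a log scale) within animals 1-4 (circles) and animals 5-8 (squares). Fibroblast, macrophage, tendon, Schwann cell and adipocyte markers lie below 1 in both pools. In animals 1-4 the Schwann cell markers are at 0.998 and the adipocyte markers at 0.984. Myofibre markers lie at 1.08 and 1.10. Each sum weighs its brightest genes most.

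The genes that release, carry or modify IGFs beside the 9 were mostly dim. Of 13 measured, 0 were higher in both pools (29.0% of all genes) and 3 lower (24.0%), and none passed the test. The secreted proteases Htra3 and Htra1, the latter known to cleave IGFBP-5, had the smallest p of this list. Htra3 read 5.71 and 5.21 in the ProMyo legs, against 6.22 and 6.05 in the saline legs, a difference of -0.68 ± 0.22 (limma, unadjusted p = 0.028, adjusted p = 0.82). Htra1 read 5.48 and 5.45 against 5.87 and 5.78, a difference of -0.36 ± 0.15 (limma, adjusted p = 0.82). Both were lower in both pools and did not overlap between groups (as for 15.7% of all genes). Igf2bp3, an RNA-binding protein of the Igf2 transcript, differed by -0.40 and Stc2, a stanniocalcin that inhibits PAPP-A, by 0.31. Both were dim, and Igf2bp3 was at background on 1 array.

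Downstream of the receptor, 26 of 32 listed genes were measured, 11 of them higher (29.0% of all genes) and 5 lower (24.0%) in both pools. Their median was 0.04 and none passed the test. Insrr, 1 of the 5 that were lower, was at background on all 4 arrays. Pik3r2, a regulatory subunit of PI3K, read 1.72 and 1.71 in the ProMyo legs, against 2.48 and 2.31 in the saline legs. The 2 groups were well apart, with -0.68 ± 0.16 (limma, unadjusted p = 0.0077, adjusted p = 0.82). Pik3r2 was the only listed signalling gene at least 1.5-fold lower in both pools (0.563% of all genes). Eif4ebp1, a repressor of cap-dependent translation, differed by -0.44 ± 0.21, Grb14, an inhibitor of the insulin receptor, by 0.33 ± 0.22, and Irs1, the docking protein of insulin and IGF-I receptors, by 0.20 ± 0.15 (limma, adjusted p of 0.83 to 0.86).

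Growth hormone raises Igf1 through Jak2 and Stat5. Of the 9 genes of this axis 2 were higher (29.0% of all genes) and 6 lower (24.0%) in both pools, with a median of -0.08 and none past the test. Socs1, 1 of the 2 that were higher, was at background on 3 arrays. Jak2, the kinase bound to the growth hormone receptor, differed by -0.28 ± 0.17, the phosphatase gene Ptpn1 by -0.32 ± 0.21, Stat5a by 0.33 ± 0.25 and the feedback inhibitor Cish by -0.20 ± 0.15 (limma, adjusted p of 0.84 to 0.86).

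Of the 9 measured imprinted genes that are coexpressed with Igf2 in growing tissue, 3 were higher (29.0% of all genes) and 0 lower (24.0%) in both pools. Their median was 0.03. Nnat, a membrane proteolipid, read 1.40 and 1.06 in the ProMyo legs, while its 0.51 and 0.86 in the saline legs were both at background. Plagl1, a zinc finger factor of this network, differed by -0.47 ± 0.38, the noncoding RNA Meg3 by 0.10 ± 0.16 and the cell cycle inhibitor Cdkn1c by -0.20 ± 0.36 (limma, adjusted p of 0.87 to 0.95). The difference of Plagl1 was -0.96 in animals 1-4 and 0.03 in animals 5-8.

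The CCN proteins carry a domain like that of the IGF binding proteins. Of them 5 were measured, 2 higher (29.0% of all genes) and 2 lower (24.0%) in both pools. Ccn3 differed by 0.63 ± 0.32, with 0.08 in animals 1-4 and 1.18 in animals 5-8. Ccn2, the connective tissue growth factor, read 5.24 and 5.17 in the ProMyo legs, against 5.46 and 5.43 in the saline legs, a difference of -0.24 ± 0.15. Ccn1 differed by -0.31 ± 0.23 (limma, adjusted p of 0.83 to 0.86 for these 3). Ccn5, 1 of the 2 that were lower in both pools, was at background on 3 of the 4 arrays. No CCN gene passed the test.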

How the data were processed

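Expression was measured on Affymetrix GeneChip arrays, 2 per group, each with RNA of 4 animals. Per the submitters' processing notes, the authors made the deposited log2 values with the RMA method of Affymetrix Expression Console. The sources used here give neither versions nor the log base; values from below 0 to 13 were read as log2. Fold values hold on that scale. Of 45101 probe sets, 34945 had 1 symbol, 932 several and 9160 none, and 64 were array controls. Symbols were matched by gene identifier to RefSeq GRCm38.p6 (34741 matched, 0 changed). Genes were represented by their brightest probe set, and those whose mean over the arrays fell under 0.454, the 25th percentile, were dropped.

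limma 3.58.1 in R 4.3.3 (lmFit, eBayes, 2 residual and 3.16 prior degrees of freedom) compared the groups over 15102 genes with Benjamini-Hochberg adjustment at 0.05, and other probe sets over 33778 probe sets. The script was tested on simulated data. Arrays have no read depth; their number limits the precision (median SE 0.193). Both legs came from the same mice, so equal pool numbers pair the arrays; deviations of same-numbered pools correlated with r = 0.158. The members and lists were chosen with earlier results of these data known. Companion genes were named by the smallest p, up to 4 per list; Igfbp1 and Igfbp2 (neighbours of members) and Myh4 and Myh7 (tissue check) were named beside this rule, after their values were seen; no gene was named for a pattern like a member's. Alternatives were the pool as a block, 2 other filters, a variance trend, 2 scalings, the mean of probe sets, all probe sets, and leaving out each array.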

Additional observations from a re-analysis of the deposited data

How the results depend on the processing

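No IGF gene passed limma's threshold under any of the 12 alternatives (adjusted p from 0.46 to 1). With the replicate block, which pairs both legs of a pool, 0 genes had an adjusted p under 0.05, 1039 had an unadjusted one, and the adjusted p of the 9 genes lay between 0.68 and 0.995; the block changed no call. Of the 9 genes Igf1r alone then had an unadjusted p under 0.05 (0.030). Fitting every probe set in place of genes called 1 probe set, which belongs to none of the 9 genes. In place of 4 genes higher and 3 lower in both pools, quantile normalization gave 2 and 4, median centring 5 and 4, and the mean of probe sets 5 and 3. Quantile normalization turned Igfbp7 to -0.062. Without single arrays, the count of genes past the threshold stayed at 0 (lowest and highest), the count of genes higher in ProMyo muscle ran from 3 to 4 and that of genes lower from 2 to 5, where both differences share the lone array of a group, which is assumed to vary like the other group. Igf2 ran from -0.70 to 0.25 and Igfbp7 from -0.043 to 0.060. The other 7 genes kept their sign in every alternative: Igf1 from 0.03 to 0.20, Igf1r from -0.87 to -0.07, Igf2r from 0.01 to 0.14, Igfbp3 from 0.23 to 0.63, Igfbp4 from -0.92 to -0.31, Igfbp5 from 0.24 to 0.52 and Igfbp6 from -0.80 to -0.32. The block, the filters, the variance trend and the fit of all probe sets leave the difference unchanged, so its sign could not turn there. For Igfbp3, Igfbp4, Igfbp5 and Igfbp6, whose groups did not overlap, leaving out 1 array could not turn it either. No alternative used the second brightest probe set alone, where Igf1r read 0.33 and Igfbp3 -0.01. The causes of the shifts were not tested.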
